A study of Mus musculus with 4 samples.

Results

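The cytosolic ribosomal protein genes were described in lung alveolar macrophages of wild-type mice (WT) and of mice without Bach2 (Bach2KO). Alveolar macrophages are the phagocytes that live in the air sacs, and Bach2 is a transcription repressor of the basic leucine zipper family. Members were all genes whose symbol begins with Rpl or Rps and a number, with Rpsa, Rplp0, Rplp1 and Rplp2, after leaving out the Rps6k kinases and pseudogenes. This rule used no signal and found 86 of the 19751 genes on the array. Of these, 76 are subunits of the cytosolic ribosome (30 of the small and 46 of the large subunit) and 8 are paralogs of such subunits. Rps19bp1 and Rps23rg1 match the name rule and were counted as neither.

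RNA was hybridised in 1 colour (Cy3) to 4 Agilent mouse arrays on 1 slide, 2 of WT and 2 of Bach2KO. Each genotype was a pool of animals, 8 for WT, and for Bach2KO 4 by the treatment protocol or 3 by the design text. The macrophages were sorted by flow cytometry, and the labels leave the gate unnamed. The 2 arrays of a genotype carried separately amplified and labelled parts of 1 RNA sample. Each genotype was therefore 1 sample, no test between genotypes was possible, and the spread between 2 arrays is technical. The mice carried no other allele or treatment in the labels, and no age, strain or design of the Bach2 allele is given there. Position on the slide and genotype cannot be told apart.

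The ribosome is built from ribosomal RNA and a large set of proteins, which are needed in equal numbers because each stands once in the particle, the acidic stalk proteins excepted. Their messenger RNAs are among the most abundant of any cell. Most begin with a C followed by a run of pyrimidines, the 5′ terminal oligopyrimidine (TOP) motif, through which mTOR signalling and Larp1 set their translation together. A few subunits have a second gene with a narrower pattern of expression, often testis or muscle, whose protein can take the place of the main copy.

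Start sites of some members are shown first, since a shared motif at the start is what the family is known for. Rps2 and Rps4l, described below, are not among them. Sequences are from RefSeq on GRCm38.p6, each the 60 bases before the annotated start and the 20 from it, with capitals marking a run of at least 8 pyrimidines that begins with C near the start, or the letters CCGGAAGT, the core bound by Ets factors such as Gabpa. Rps6, Rplp2, Rps12 and Rps15a carried such a run, Rpl41 carried CCGGAAGT, and Rpl12 carried neither in the stretch shown. The pair Rpl39 and Rpl39l is shown because the main copy and the paralog differed most in their change.
Rps6 (chr4:86857348-86857427, minus strand): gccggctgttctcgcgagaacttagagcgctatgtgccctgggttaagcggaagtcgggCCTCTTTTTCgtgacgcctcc
Rplp2 (chr7:141447591-141447670, plus strand): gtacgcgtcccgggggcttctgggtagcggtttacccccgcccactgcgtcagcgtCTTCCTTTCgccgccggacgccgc
Rps12 (chr10:23787190-23787269, minus strand): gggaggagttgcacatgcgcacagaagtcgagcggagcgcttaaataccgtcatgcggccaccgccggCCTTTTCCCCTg
Rps15a (chr7:118116128-118116207, minus strand): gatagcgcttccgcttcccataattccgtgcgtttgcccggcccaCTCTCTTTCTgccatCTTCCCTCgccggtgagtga
Rpl41 (chr10:128549149-128549228, minus strand): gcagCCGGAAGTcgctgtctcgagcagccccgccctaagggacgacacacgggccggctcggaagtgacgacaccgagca
Rpl12 (chr2:32961652-32961731, plus strand): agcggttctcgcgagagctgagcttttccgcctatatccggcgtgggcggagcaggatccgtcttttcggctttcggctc
Rpl39 (chrX:37085203-37085282, minus strand): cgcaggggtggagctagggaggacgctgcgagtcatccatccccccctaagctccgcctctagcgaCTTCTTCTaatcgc
Rpl39l (chr16:10170168-10170247, plus strand): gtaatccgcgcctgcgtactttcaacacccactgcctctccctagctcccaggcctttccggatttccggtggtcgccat

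A start window (250 bases before to 50 after) was matched for 65 of the 86 members, 56 of them ribosomal subunits with 66 windows. The pyrimidine run, searched on the sense strand from 15 bases before to 35 after the start, stood in 34 of the 66 windows (51.5%) and in 14.0% of all 32851 windows. CCGGAAGT, searched on both strands of the whole window, stood in 11 (16.7%) against 3.89% of all. AAGATGGC, the core of the Yy1 site, stood in 7 (10.6%) against 2.75%. TATAAA stood in 6 (9.09%) against 13.6%, and TGANTCA, the core of the element shared by AP-1, Maf and Bach factors, in 2 (3.03%) against 7.81%. AAGATGGC read on the other strand can share its last letters with a pyrimidine run, as it does in Rps15a. These counts describe letters in a window, not bound sites.

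All signals below are log2 of the processed spot signal minus the log2 75th percentile of the same array, and a difference is the mean of the Bach2KO arrays minus the mean of the WT arrays. Each Bach2KO array was set against each WT array, and a call of higher or lower required 2-fold or more in the same direction in all 4 of these pairs. The call is a size threshold without a p-value. The 75th percentile signal was between 979 and 1513 on the 4 arrays, between 27125 and 27918 probes were well above background, and 0 spots were saturated. The Bach2 probe gave no check of the labels, being well above background on only 1 array of each genotype, at -6.32 and -6.28 in WT and -5.16 and -8.13 in Bach2KO. Of 15 alveolar macrophage markers all were measured, with 1 called higher and 5 lower, against 8.37% and 5.90% of all measured genes. Their summed signal was 1375 to 1548 times the 75th percentile in WT and 1084 to 1097 times in Bach2KO.

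Relative to the 75th percentile of each array, the 76 subunit genes differed little between the 2 RNA samples. All 86 members were well above background on all 4 arrays. None of the 76 subunits was called at 2-fold in either direction, where 8.37% of the 15122 measured genes were called higher and 5.90% lower. With a 1.5-fold rule again none was called, against 14.8% higher and 12.8% lower among all genes. The median difference of the 76 was 0.18 on the log2 scale, beside 0.06 for all measured genes. With arrays scaled on spike-in probes instead, it was -0.53 beside -0.65, with all 76 lower in every pair of arrays (80.3% of all genes) and 12 lower at 1.5-fold (45.4%).

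The narrowness of the family beside all genes was the main feature of its data. Differences ran from -0.15 to 0.62, with an interquartile range of 0.19 against 0.80 over all genes and an SD across genes of 0.16 against 1.16. The comparison was not matched for brightness, with array medians of 6.38 to 6.56 for the subunits and -0.80 to -0.78 for all genes. The interquartile range of 18 other TOP genes, described below, was 0.18, so this width was not particular to the family. Of the 76, 73 (96.1%) lay between -0.5 and 0.5, as did 59.3% of all genes. Technical spread was narrower than the family's own: the second minus the first array differed across the 76 genes with an SD of 0.08 in each genotype. Differences from the first-numbered arrays and from the second-numbered arrays, which share no array, correlated across the 76 genes at r = 0.78. The r describes genes, which are not replicates, and the pairs share the 2 RNA samples and the slide.

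**Figure D1:**
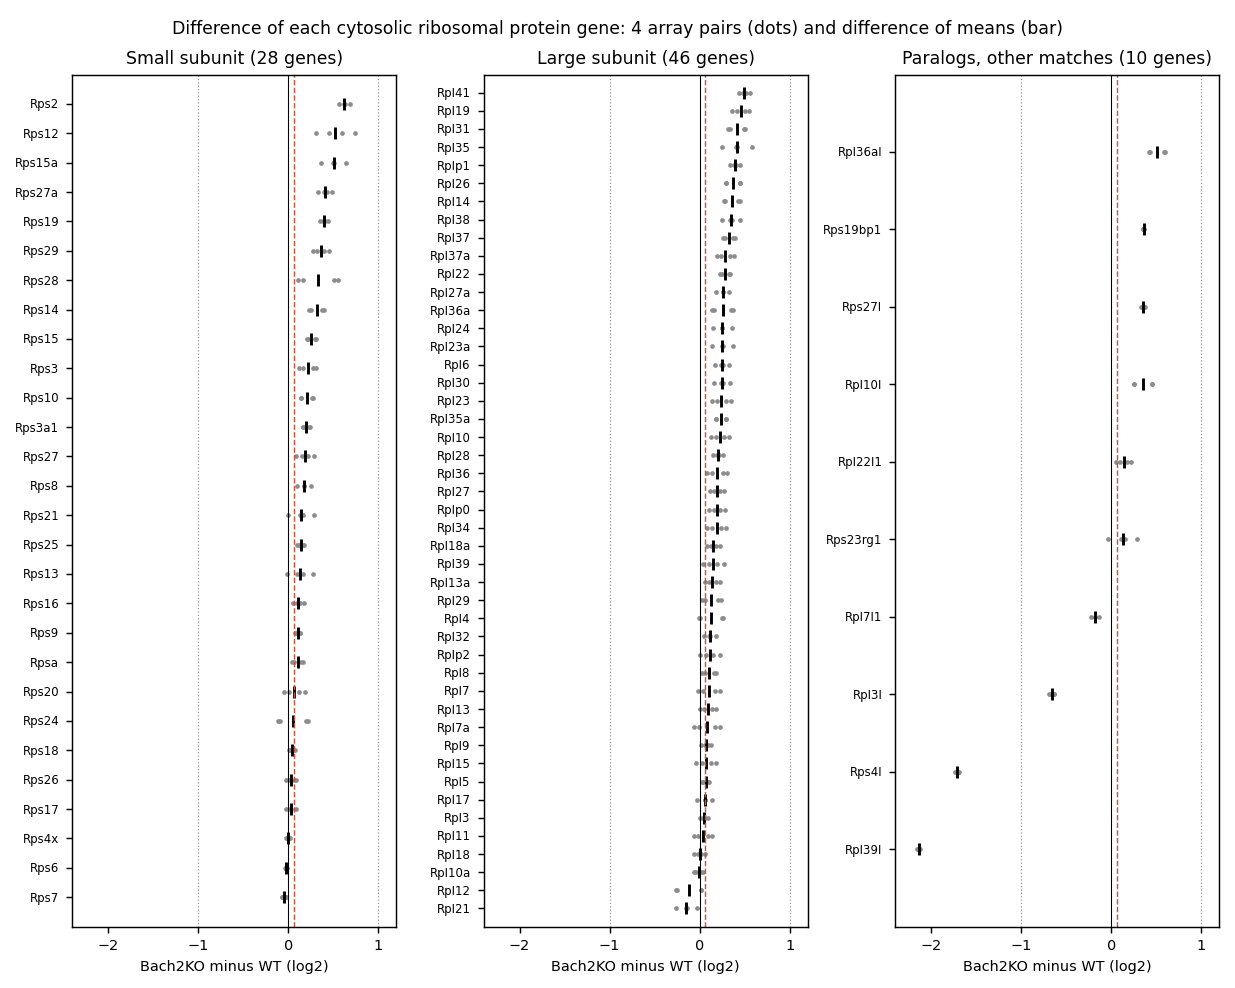
Differences of 84 of the 86 members in log2 units, with grey dots for the 4 pairs of arrays across genotypes and a black bar for the difference of means; dotted lines mark 2-fold and the dashed line the median of all genes (0.06). All 74 subunits drawn lie inside the 2-fold lines, while Rpl39l (-2.14) and Rps4l (-1.71) lie outside.

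**Figure D2:**
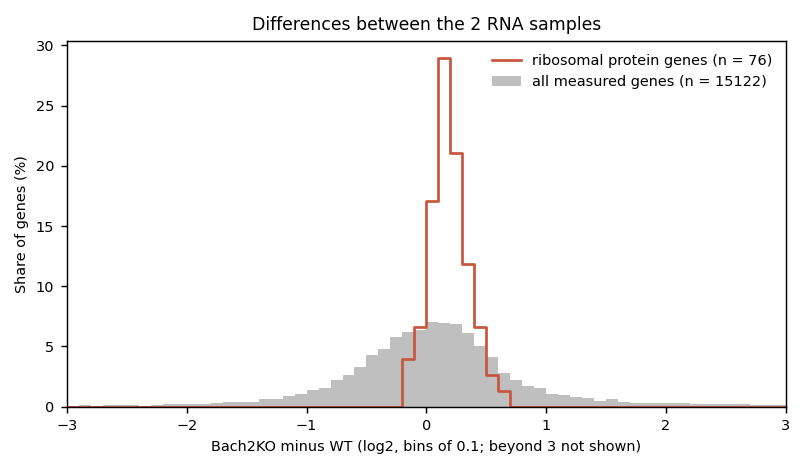
Share of genes (%) by difference in bins of 0.1 log2 units, for the 76 subunit genes (line) and the 15122 measured genes (grey area). The subunits form a narrow peak just above 0, from -0.15 to 0.62.

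Within this narrow range most subunits stood slightly higher in Bach2KO. Both Bach2KO arrays were above both WT arrays for 55 of the 76 genes and below both for 4, and the arrays overlapped for 17, against 45.6% of all genes wholly higher and 39.5% wholly lower. The direction rested on the scaling of the arrays and is given under each scaling further on. The WT arrays also differed from each other in the family: the first was above the second for 70 of the 76 genes, by a median of 0.10, while the second Bach2KO array stood above the first by a median of 0.03. The array medians over the 76 were 6.51 and 6.38 in WT and 6.52 and 6.56 in Bach2KO, so the first WT array lay closer to the Bach2KO arrays than to the other WT array.

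Small-subunit proteins surround the decoding centre and the path of the messenger RNA. Their 30 genes had a median difference of 0.14, with 20 wholly higher (45.6% of all genes), 3 wholly lower (39.5%) and 7 overlapping. Rps2, which lines the entry channel of the messenger RNA, read 5.96 and 5.89 in WT and 6.52 and 6.58 in Bach2KO. It was the highest of the 76, with a difference of 0.62, or 1.54-fold, and its arrays did not overlap. A second Rps2 probe gave 0.23. Rps12, which sits on the beak of the small subunit, read 7.15 and 7.01 in WT and 7.46 and 7.75 in Bach2KO, a difference of 0.52, and a second probe gave 0.56. Rps15a, a gene mutated in some patients with Diamond-Blackfan anaemia, read 5.53 and 5.39 in WT and 5.90 and 6.03 in Bach2KO, a difference of 0.50. Rps27a, which encodes ubiquitin fused to a small-subunit protein, read 7.14 and 7.08 in WT and 7.48 and 7.57 in Bach2KO, a difference of 0.41. These 4 genes had both Bach2KO arrays above both WT arrays without reaching 1.5-fold in every pair.

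At the other end of the small subunit, Rps6, the substrate of the S6 kinases, read 6.19 and 6.18 (WT) and 6.16 and 6.15 (Bach2KO). Its arrays did not overlap, with a difference of -0.02. Rps7, which binds Mdm2 when free of the ribosome, differed by -0.05. Rps4x, the X-linked main copy of the S4 protein, read 5.20 and 5.19 in WT and 5.17 and 5.21 in Bach2KO, with overlapping arrays. Rpsa, which also serves as a laminin receptor precursor, differed by 0.10. The 4 measured genes at the decoding and entry sites (Rps2, Rps3, Rps9 and Rps15) had a median of 0.24.

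Large-subunit proteins line the peptide tunnel, the stalk and the outer shell. Their 46 genes had a median of 0.19, with 35 wholly higher (45.6% of all genes), 1 wholly lower (39.5%) and 10 overlapping. Rpl41, the smallest ribosomal protein and part of a bridge between the subunits, read 7.04 and 6.99 in WT and 7.47 and 7.55 in Bach2KO, the highest difference of the large subunit at 0.50. Rpl19, near the tunnel exit and at another bridge, read 5.81 and 5.76 in WT and 6.17 and 6.31 in Bach2KO, a difference of 0.45. Rpl31, at the tunnel exit, read 5.69 and 5.67 in WT and 6.01 and 6.18 in Bach2KO, a difference of 0.41. In all 3 the Bach2KO arrays lay above the WT arrays. The 9 genes of the tunnel and its exit had a median of 0.28, with 7 wholly higher and none lower, where 45.6% of all genes were wholly higher.

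The acidic stalk, which recruits the elongation factors, is built from Rplp0, Rplp1 and Rplp2. Its genes differed by 0.19, 0.39 and 0.11, and the arrays of Rplp2 overlapped. Rpl5 and Rpl11, which form a particle with the smallest ribosomal RNA and bind Mdm2 when ribosome assembly is disturbed, differed by 0.06 and 0.04. Rpl12, a protein at the stalk base, read 6.16 and 5.89 in WT and 5.91 and 5.90 in Bach2KO. Its difference of -0.12 came with overlapping arrays and rested on the first WT array, and its second probe gave 0.19. Rpl21 was the lowest of the 76 at -0.15, with -2.27 and -2.38 in WT and -2.53 and -2.41 in Bach2KO. The other Rpl21 probe gave -0.37. The used Rpl21 probe was far dimmer than that of any other subunit, the next being Rps19 at 4.64 to 5.08. Whether it reads the main Rpl21 transcript was not tested. Of the 20 genes mutated in Diamond-Blackfan anaemia, 12 were wholly higher (45.6% of all genes), 1 wholly lower (39.5%) and 7 overlapped, with a median of 0.19. Among all 76 subunits 55 were wholly higher and 4 wholly lower.

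The members that did change beyond 2-fold were paralogs. Among all 86 members 0 were called higher and 2 lower, Rpl39l and Rps4l, against 8.37% higher and 5.90% lower among all genes. At 1.5-fold Rpl3l joined them as the third lower member (12.8% of all genes), and again none was higher (14.8%).

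Rpl39l, known as a male germ cell copy of the tunnel protein Rpl39, read -1.70 and -1.73 in WT and -3.85 and -3.86 in Bach2KO. This is 4.41-fold lower in Bach2KO (-2.14), with a gap between genotypes far wider than the 0.03 or less between arrays of a genotype. Rpl39 itself read 5.92 and 5.76 in WT and 6.03 and 5.95 in Bach2KO, a difference of 0.15. The change of the paralog minus that of the main copy was -2.29. With normexp background correction, which adds an offset and so draws in weak signals, Rpl39l stood at -1.49 and kept its call.

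Rps4l, a copy of Rps4x that RefSeq lists as a non-coding transcript, read 2.76 and 2.78 in WT and 1.07 and 1.04 in Bach2KO. It was 3.27-fold lower (-1.71), and Rps4x did not move with it (-0.00, with overlapping arrays). The value was -1.74 with normexp. Rpl3l, known as the copy of Rpl3 used in heart and skeletal muscle, read -2.65 and -2.69 in WT and -3.33 and -3.33 in Bach2KO, or 1.58-fold lower. Rpl3 differed by 0.05. The 1.5-fold call of Rpl3l was lost with normexp (-0.39).

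The other 5 paralogs stayed within 1.5-fold. Rpl36al read 4.72 and 4.56 in WT and 5.15 and 5.16 in Bach2KO, a difference of 0.51 beside 0.25 for Rpl36a. Rps27l, a p53 target, differed by 0.35 and Rps27 by 0.19. Rpl10l, a testis copy, differed by 0.35 and Rpl10 by 0.23. Rpl22l1, which in other cells answers to loss of Rpl22, differed by 0.14 and Rpl22 by 0.28. Rpl7l1 differed by -0.18 and Rpl7 by 0.10. Of the name matches, Rps19bp1, a nucleolar binding partner of Rps19, differed by 0.36 and Rps23rg1 by 0.13.

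**Figure D3:**
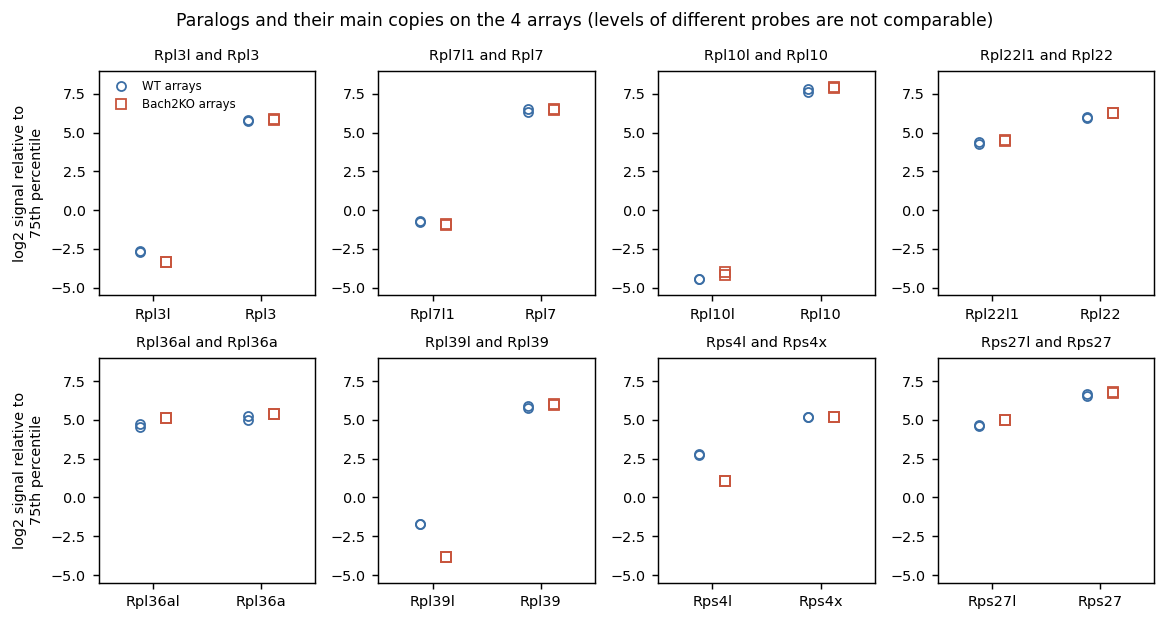
Log2 signal relative to the 75th percentile on each WT array (circles) and Bach2KO array (squares) for 8 paralogs and their main copies; levels of different probes are not comparable. Rpl39l and Rps4l are apart between genotypes by 2.14 and 1.71, while Rpl39 and Rps4x differ by 0.15 and 0.00.

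Probes of 1 gene did not always give the same small difference. Of the 86 members 51 had several measured probes, their differences spanned a median of 0.16, and the sign differed in 17 (among them Rpl6, Rpl7, Rpl7a, Rpl11, Rpl12, Rpl14, Rpl15, Rpl17, Rpl22, Rpl23a, Rpl35a, Rpl39, Rps15a, Rps24, Rps25 and Rpsa). That span is close to the median difference of the subunits, 0.18. Of the 84 measured probes that were not used, 1 was called higher and 0 lower, against 8.37% and 5.90% of all measured genes. It was the second probe of Rps3, a protein of the entry channel that also acts in DNA repair. That probe read 1.40 and 1.30 in WT and 3.04 and 3.13 in Bach2KO (1.73). The used Rps3 probe gave 0.22. Another Rps24 probe gave -0.93 where the used probe gave 0.05, and another Rps15a probe gave -1.35. The RefSeq table holds pseudogenes named after 63 of the members, 24 of them for Rpl31 and 23 for Rps12, so a probe may bind several near-identical transcripts and the values of single members are uncertain for that reason.

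The sign of the family's shift depended on how the arrays were brought to a common scale. With the 75th percentile the median of the 76 was 0.18, and 68 lay above 0. Scaled on 9 spike-in probes, which read control RNA that is not from the mouse, it was -0.53. Then none was wholly higher (11.9% of all genes) or higher at 1.5-fold (5.91%), and at 2-fold none of the 76 was lower (20.9%) or higher (4.15%). All genes then had a median of -0.65. This scaling moves every gene difference by the same amount, so the subunits stood 0.12 above that median by construction, as in the main setting. With quantile normalization the median was -0.05, beside 0.01 for all genes, and 30 lay above 0 and 46 below. With median centring it was 0.08, and with normexp and the 75th percentile 0.16, beside 0.12 for all genes. Relative to all genes the family stood 0.12 higher in the main setting and therefore also with spike-in scaling and median centring. It stood 0.04 higher with normexp and the 75th percentile, and 0.06 lower with quantile normalization, with or without normexp. Spike-in scaling assumes equal amounts of control RNA per input RNA, which no source used here states. The cause of its lower values was not tested. Fewer cells of a type and less RNA per cell cannot be told apart in pooled RNA.

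The order of the subunits held where their shared shift did not. Differences with quantile normalization correlated with the main ones across the 76 genes at r = 0.95, those with normexp and the 75th percentile at r = 0.98 and those with normexp and quantile normalization at r = 0.92, on the same 4 arrays. Rps2 was the highest of the 76 in the main setting, with quantile normalization (0.41) and with both normexp settings. Median centring and spike-in scaling subtract 1 constant per array and so cannot change the order. With the spike-in probes Rps2 stood at -0.09. Its rank rests on the probe used, since the other Rps2 probe gave 0.23 in the main setting. The used probe was the brighter of the pair only on the Bach2KO arrays. Its choice as the brightest thus drew on the group where it is high, and the other scalings do not test the rank.

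**Figure D4:**
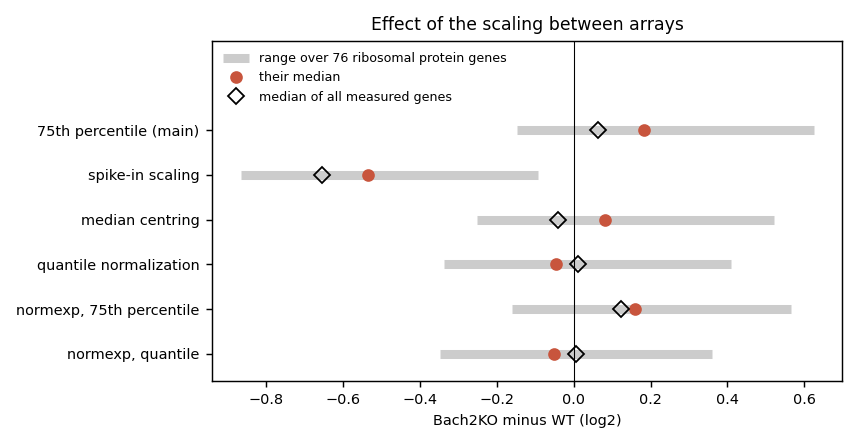
Median difference of the 76 subunits (filled circle), their range (grey bar) and the median of all measured genes (diamond) in log2 units under 6 ways of scaling the arrays. The subunit median runs from -0.53 with spike-in probes to 0.18 with the 75th percentile. The width of the range hardly moves, and spike-in scaling and median centring cannot change it.

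Ribosomal proteins that carry other names gave like values. Rack1, a scaffold on the small subunit, differed by 0.19, and Fau, which encodes a small-subunit protein behind a ubiquitin-like leader, by 0.24. Each had both Bach2KO arrays above both WT arrays, as did 45.6% of all genes.

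Mitochondrial ribosomal proteins, which build the separate ribosome of the organelle, spread more widely. Of 77 measured genes 0 were called at 2-fold, against 8.37% higher and 5.90% lower among all genes. At 1.5-fold 2 were higher, Mrpl41 (0.93) and Mrps36 (0.63), against 14.8%, and the lowest was Mrps26 (-0.61). Their median was 0.01 and their interquartile range 0.43, against 0.19 for the cytosolic subunits. Of the 18 other genes with TOP messenger RNAs, such as elongation factors, none was called at 2-fold and the median was 0.05. Their interquartile range of 0.18 was near that of the cytosolic subunits, while their SD was 0.30 against 0.16. Tpt1, the translationally controlled tumour protein, was highest at 0.46, and Nap1l1, a histone chaperone, lowest at -0.91.

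Genes that make ribosomes had a lower median than the ribosomal proteins. Of 53 genes for ribosomal RNA synthesis, processing and assembly 0 were called at 2-fold, with a median of -0.18, where 8.37% of all genes were called higher and 5.90% lower. The list had 32 genes wholly lower and 12 wholly higher, against 39.5% and 45.6% of all genes. At 1.5-fold Nop56 (-0.75), a core protein of the particles that methylate ribosomal RNA, and Dkc1 (-0.73), which makes pseudouridine in it, were lower, against 12.8% of all genes. Polr1c, a subunit of RNA polymerases I and III, was highest at 0.55.

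Initiation factors had a median of -0.01 over 55 genes. At 2-fold 2 were called higher and 0 lower, against 8.37% and 5.90% of all genes. Eif4e3, a relative of the cap-binding protein, was 8.64-fold higher, from -4.67 and -4.68 in WT to -1.62 and -1.51 in Bach2KO, and Eif1a was 2.27-fold higher. Eif2s3y, on the Y chromosome, was the only 1 lower at 1.5-fold (-1.06), against 12.8% of all genes. The 19 cytosolic tRNA synthetases had a median of -0.09. Of these only Aars was higher at 1.5-fold (0.82), against 14.8% of all genes. Of the 20 measured genes of growth control, Mdm2 (0.84), Cdkn1a (0.81) and Rps6kb1 (0.77), the kinase of Rps6, were higher at 1.5-fold, and Myc (-0.76) and Mxd1 (-0.71) were lower. These counts of 3 and 2 among 20 are near the shares over all genes, 14.8% and 12.8%. With spike-in scaling the medians of the mitochondrial, TOP, biogenesis, initiation, synthetase and growth lists were -0.71, -0.67, -0.90, -0.73, -0.80 and -0.63, beside -0.65 for all genes.

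**Figure D5:**
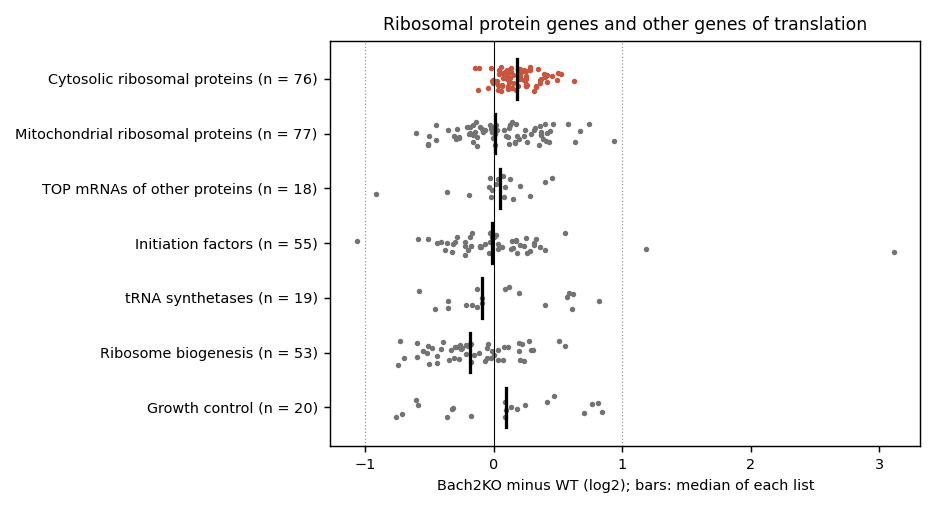
Difference of each gene in log2 units (dots, spread vertically for sight only) for the 76 subunits and 6 lists of other translation genes; black bars are medians and dotted lines mark 2-fold. The subunits span 0.77 units with a median of 0.18, and ribosome biogenesis has the lowest median at -0.18.

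Markers of other cells also differed between the 2 RNA samples. In units of the 75th percentile, the summed signal of 9 neutrophil markers was 3.81 to 4.01 in WT and 23.1 to 25.1 in Bach2KO, with 3 called higher (S100a8, S100a9 and Retnlg) and 2 not above background on any array (Ngp and Mmp9). S100a8 made up most of the rise in the sum, from 0.47 and 0.41 to 4.14 and 4.26 on the log2 scale. Elane read 1.19 and 1.11 in WT and 2.18 and 2.32 in Bach2KO (1.10), higher at 1.5-fold but not called at 2-fold. Camp (0.48), Cxcr2 (0.49) and Mpo (-0.12) differed by less than 1.5-fold. The summed signal of 11 monocyte and interstitial macrophage markers was 63.7 to 65.8 in WT and 75.7 to 76.0 in Bach2KO, with 4 called higher and 1 lower. Of 12 T cell markers (10 measured) 4 were higher and none lower (7.23 to 8.06 in WT and 9.99 to 10.1 in Bach2KO). Of 9 B cell markers (7 measured) 1 was higher. Of 11 epithelial markers (8 measured) 2 were higher and 1 lower, and of 10 endothelial and fibroblast markers (8 measured) 2 were higher. None of 7 natural killer (4 measured) and 6 dendritic cell markers (4 measured) was called. Over all measured genes 8.37% were called higher and 5.90% lower. The 12 proliferation genes had sums of 74.0 to 74.1 in WT and 61.7 to 63.3 in Bach2KO, with none called. The part of other cells in the differences of the ribosomal protein genes was not tested.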

How the data were processed

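Spot intensity on a linear scale was deposited by the authors as scanner output of Agilent Feature Extraction, version 10.7.3.1 per the file headers and 9.1 per the submitters' processing notes. It was background-subtracted and detrended within arrays and not normalized between them, per the file headers. The value table that the authors deposited is in log2 units, each column equal to the log2 processed signal of its array minus a constant near its 75th percentile (10.22 to the array's own 10.31 on the first WT array; SD of the fit 3.2e-07 to 3.5e-07). Its medians were -3.58, -3.67, -3.53 and -3.45, and scale, centring and direction were settled by this match.

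Control spots and 109 to 136 outlier spots per array, of 43020 non-control spots, were left out, spots of a probe averaged, and the log2 75th percentile subtracted. Of 39429 probes 26055 had 1 symbol and 13374 none, through RefSeq accessions of GRCm38.p6. The array design is on mm9, so no probe coordinates are given. A gene counted as measured if its probe was well above background on the 2 arrays of WT, of Bach2KO or of both, and the brightest measured probe stood for the gene. The number of arrays limits the precision. The normexp correction (limma 3.58.1, R 4.3.3) used median spot signals and an offset of 50. Numbered arrays were no pairs by label, and the same-numbered deviations correlated at -0.14 over all genes.

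The members and gene lists were chosen with earlier results of these data known. Named were members called at 2-fold, the 8 highest and 8 lowest, the stalk, the Rpl5 and Rpl11 pair, paralogs and their main copies, Rpsa, Rps6 and Rps27a, members whose probes disagreed in sign, and up to 3 extremes each way of related lists. Some genes that these rules select are not reported here. Rps23rg1, Rps3, Rps24 and the promoters printed were picked after their values were seen, and Rps23rg1 was then set apart from the subunits. The call rule was checked on simulated data. Alternatives were other scalings, background correction, filters, probe rules, folds, pairings and leaving out each array.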

Additional observations from a re-analysis of the deposited data

How the results depend on the processing

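Rpl39l and Rps4l were called lower under all 18 alternatives run, a 3-fold threshold among them and 1 of them chosen after seeing the data. No member was higher at 2-fold under any of these. The median difference of the members (86 genes), 0.17 in the main setting, was 0.063 with median centring, -0.042 with quantile normalization (-0.043 after normexp) and -0.55 with spike-in scaling. Relative to all genes it was 0.10, and -0.052 with quantile normalization, -0.051 with it after normexp and 0.019 with no filter on dim probes. At 1.5-fold spike-in scaling called 16 members lower instead of 3, where the share of all genes was 45.4% instead of 12.8%. At 2-fold it called 3 members lower, against 20.9% of all genes. Higher at 1.5-fold was 1 member (Rps2) in the deposited table and with array means, and 1 (Rps3) with the mean of probes. Leaving out 1 array gave a median of 0.12 to 0.22 and 0 to 2 members higher at 1.5-fold (Rps2 without the first WT array, Rps2 and Rps12 without the first Bach2KO array). The cause of these shifts was not tested. With the replicate block on same-numbered arrays 2 members were lower at 2-fold, 3 at 1.5-fold and 0 higher, and with crossed numbers, added because deviations of same-numbered arrays correlated at -0.14, 1 (Rps2) was higher at 1.5-fold. For the 35 named members, of 595 values under the alternatives 438 moved by less than the spread between arrays, 156 moved by more, and 1 became called (Rpl3l at 2-fold with spike-in scaling). The sign of the difference changed in 61 of the 595, none of them called, with 25 of 35 members under spike-in scaling, 10 under each quantile setting, 6 with the mean of probes and 4 with median centring. All member probes used were well above background on all 4 arrays.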
